A study of Mus musculus with 24 samples.

Results

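The astrocyte marker genes described here were Gfap, Aqp4, S100b, Aldh1l1, Slc1a2, Slc1a3, Gja1, Gjb6, Glul and Sox9 in the hippocampus of neonatal mice. They were chosen by name, and their members were all non-control probes of the mRNA arrays that carry 1 of these 10 names, among 36163 gene names in all. The 10 genes had 15 probes among 55681: 3 each for Gfap and Slc1a2, 2 for Aqp4 and 1 for each of the other genes. All 15 probes were well above background on all 15 arrays, so a filter on low values removed none.

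Astrocytes are the glial cells that take up transmitter at synapses, buffer ions and water, and pass metabolites to neurons. In the hippocampus of the first postnatal weeks they are still multiplying and maturing, and the expression of their glutamate transporters, gap junction proteins and water channel rises over that time. Gfap, a filament protein, and S100b, a calcium-binding protein, are the markers most often used for them. Part of the same gene set, Slc1a3 and Sox9 among it, is also expressed by radial glia and neural progenitors.

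All animals were C57BL/6 male mice killed on P9. The control pups (Con) stayed with the dam and received no treatment. From P5 the other pups received morphine at 2 mg/kg (MS2) or 5 mg/kg (MS5), and both of these groups were also isolated from the dam and exposed to apnea. Each contrast with Con therefore spanned morphine and the stress protocol together, and their parts cannot be told apart. The MS5 and MS2 groups shared the stress and differed in dose. Each group had 5 arrays, each of the hippocampi of 1 animal. Hippocampal tissue holds many cell types, and with such samples fewer astrocytes and less RNA per astrocyte cannot be told apart.

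No label states the slide of an array. Judged from the barcodes in the names of the scanner files, the arrays were on 2 slides, and every group had arrays on both. The median spot signal was 58.2 on MS2 5 and 121 to 154 on the 14 other arrays. The array MS2 4 stood apart from the rest, with a median Pearson correlation of 0.990 with the other arrays against 0.9955 to 0.9975 for the others. On MS2 4 the mean of 18 hippocampal neuron markers differed from the Con mean by -1.31 (log2), against -0.17 to 0.10 on the other 14. Over the whole MS2 group the differences of these 18 markers from Con ran from -0.76 to 0.14, so not all of them were lower. The mean of 17 hypothalamus and thalamus markers differed from the Con mean by 1.59 on MS2 4. That mean was also high on MS5 8 (0.96), MS5 14 (0.79) and MS5 12 (0.67), against -0.21 to 0.25 in Con. Of these 17 markers 13 were well above background on all arrays. The list includes Avp and Trh, which had already been reported as higher in MS5 on these same arrays. The array MS5 9 carried Xist at 11.34 (log2), against 5.89 to 6.08 on the other 14, which goes against its label as male. Choroid plexus markers, Ttr among them, were low on MS5 9 and MS5 14, where the difference of their mean from the Con mean was -2.12 and -3.02. What part these differences between arrays had in the values below was not tested, and for most members differences without MS2 4 or MS5 9 are given too.

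The probes were 60 bases long, and several genes were read at more than 1 place in their transcripts. The sequences of 2 probes are printed because the results for Slc1a2 and Gfap turn on whether separate probes of a gene moved together. These 2 contain a reading frame without a stop from base 2, and Gfap probe 3 also from base 3. Other member probes, Slc1a2 probe 3 among them, contain such frames too, so this does not set the 2 apart. The array's annotation assigns them to transcript variant 3 of Slc1a2 and variant 1 of Gfap. No letters are marked, and positions are those of the array's annotation on mm9.
Slc1a2 probe 1, chr2:102617752-102617811, plus strand, position 1615 of the transcript: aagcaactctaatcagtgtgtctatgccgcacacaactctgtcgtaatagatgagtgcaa
Gfap probe 3, chr11:102752726-102752785, minus strand, position 1294 of the transcript: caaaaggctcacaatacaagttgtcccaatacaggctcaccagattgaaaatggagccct
The other Slc1a2 probes lay further along variant 1, at chr2:102622252-102622311 for probe 2 and chr2:102626380-102626439 for probe 3. Gfap probe 1 (chr11:102751813-102751872) read variant 1 and Gfap probe 2 (chr11:102748864-102748923) read variant 2. Where a gene had several probes, probe 1 is the one with the highest mean level and stands for the gene. Levels are log2 values of background-adjusted and quantile-normalized intensity, and levels of different probes are not compared.

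No astrocyte marker differed between any groups at the threshold used, a fold change above 1.5 together with p under 0.05 before adjustment. That threshold was passed by 0 of the 15 probes in MS2 versus Con, where 0.0233% of all probes passed it, and by 0 of 15 in MS5 versus Con, where 0.228% passed. It was also passed by 0 of 15 in MS5 versus MS2 (0.129% of all probes) and by 0 of 15 when both treated groups were set against Con (0.0539%). After Benjamini-Hochberg adjustment over all probes in limma, 0 probes of the whole array had an adjusted p under 0.05 in any of the 4 contrasts. The smallest adjusted p of a member was 0.970 in MS2 versus Con. At an unadjusted p under 0.05 the members numbered 0 of 15 in MS2 versus Con against 4.17% of all probes, and 1 of 15 in MS5 versus Con against 3.9%. They numbered 0 of 15 in MS5 versus MS2 against 3.97%, and 2 of 15 for both treated groups versus Con against 4.13%. The probe called in MS5 versus Con was that of Sox9, and those called with both treated groups together were Sox9 and Gjb6.

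The median difference over the 10 genes was 0.01 (log2) in MS2 versus Con and -0.01 in MS5 versus Con, beside medians of 0.00 over all probes. The differences of single genes ran from -0.23 to 0.24 in MS2 and from -0.20 to 0.26 in MS5. The 95% interval of the difference lay wholly within 1.5-fold in either direction (0.585 in log2) for 12 of 15 probes in MS2 versus Con and for 13 of 15 in MS5 versus Con. The exceptions were S100b and Slc1a2 probe 1 in both contrasts and Slc1a2 probe 3 in MS2, and their intervals reached past 1.5-fold on the higher side. For most members a change beyond 1.5-fold thus lay outside the interval. Smaller changes were not resolved with 5 arrays a group, except that the interval of Sox9 in MS5, before adjustment, left out 0.

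**Figure D1:**
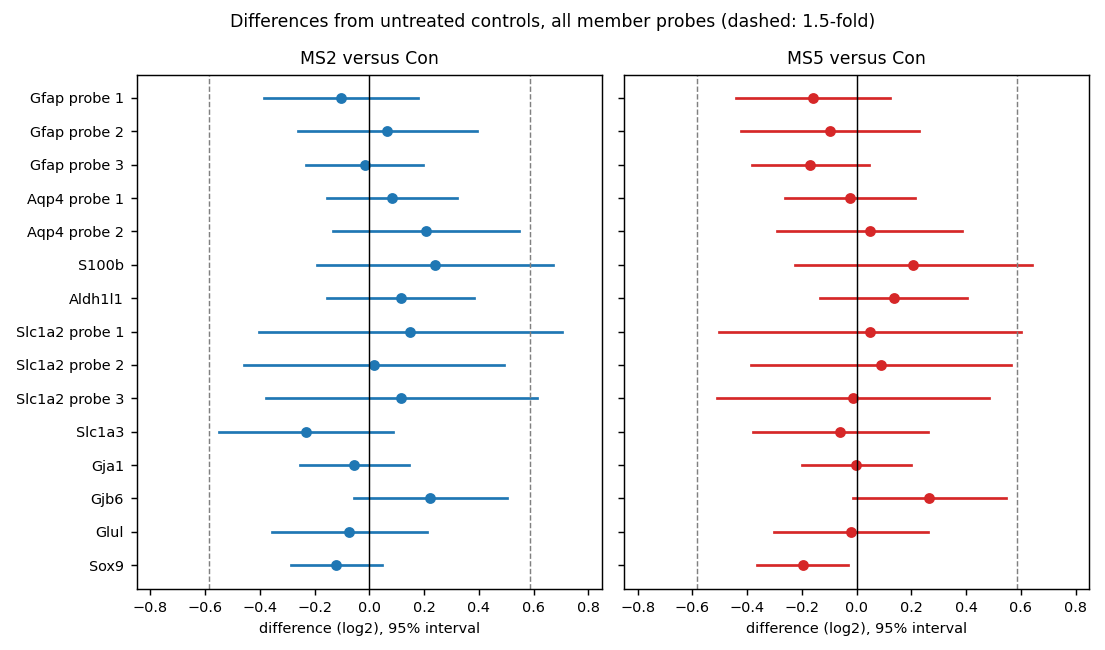
Difference from Con in log2 (horizontal axis) for each of the 15 member probes, for MS2 on the left and MS5 on the right. Dots are limma estimates over 5 arrays a group, lines are 95% intervals, and dashed lines mark 1.5-fold. The dots lie between -0.23 and 0.26, and of the 30 intervals only that of Sox9 in MS5 does not include 0.

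Gfap, the filament protein of astrocytes, did not differ between the groups beyond the spread between animals. With probe 1, the Con arrays read 13.47, 13.62, 13.55, 13.39 and 13.53, the MS2 arrays 13.76, 13.58, 13.14, 13.09 and 13.47, and the MS5 arrays 13.28, 13.08, 13.76, 13.34 and 13.31. The lowest and the highest arrays were both from treated pups, and the Con arrays lay close together between them. The SD was 0.0844 in Con, 0.287 in MS2 and 0.250 in MS5 (n = 5 each), which is a description only, as spreads were not tested. The difference from Con was -0.10 in MS2 (95% interval -0.39 to 0.18) and -0.16 in MS5 (-0.44 to 0.12). Probe 2, of variant 2, gave 0.07 and -0.10, and probe 3 gave -0.02 and -0.17. Without MS2 4 the MS2 difference was -0.04, 0.04 and 0.06 for the 3 probes, so that of probe 3 turned. Without MS2 4 and MS5 9 the MS5 difference was -0.09 with probe 1, -0.01 with probe 2 and -0.14 with probe 3. The MS5 array with the highest Gfap, MS5 12, was highest of its group on all 3 probes. Without MS5 12 the difference of MS5 from Con was -0.26 with probe 1 (unadjusted p = 0.0443) and -0.23 with probe 3 (unadjusted p = 0.0357). With probe 2 it was -0.22, and over all 25 alternatives the unadjusted p of probe 2 was at least 0.124. As MS5 12 was singled out by its Gfap level, these values are a description only.

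S100b, the calcium-binding protein, varied most between animals of a group apart from Slc1a2. The Con arrays read 12.94, 12.96, 13.39, 12.80 and 13.51, the MS2 arrays 13.19, 13.003, 13.99, 13.45 and 13.15, and the MS5 arrays 13.69, 12.76, 13.34, 13.39 and 13.45. The groups overlapped over most of their range, with MS5 9 lowest and MS2 4 highest of all 15. The difference from Con was 0.24 in MS2 (-0.19 to 0.67) and 0.21 in MS5 (-0.23 to 0.64), and the two-sided exact permutation p was 0.325 and 0.381. Single arrays moved these values: without MS2 4 the MS2 difference was 0.08, and without MS5 9 the MS5 difference was 0.35 (unadjusted p = 0.0892), or unadjusted p = 0.0293 where MS2 4 was left out as well (adjusted p = 0.817). Within slide 1 S100b was 0.50 higher in MS5 than in Con (2 and 3 arrays, unadjusted p = 0.016), and within slide 2 the difference was -0.05 (3 and 2 arrays). Its SD within groups was 0.350, larger than that of 94.7% of the 36279 probes well above background on all arrays. S100b was highest on MS2 4, MS5 8 and Con 19, where the mean of oligodendrocyte lineage markers was highest too (0.94, 1.04 and 0.88 from the Con mean). It was lowest on MS5 9 and Con 18, where that mean was lowest (-0.59 and -0.63). On MS5 14, with S100b at 13.45, that mean was -0.21. A relation between them was not tested.

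Of the 2 metabolic enzymes, Aldh1l1 converts formyl folate and marks most astrocytes, and Glul is glutamine synthetase, which turns glutamate into glutamine. Aldh1l1 read 14.02, 13.91, 13.86, 14.11 and 14.22 in Con, 14.00, 14.02, 14.63, 14.07 and 13.96 in MS2, and 14.10, 13.86, 14.23, 14.21 and 14.40 in MS5. Apart from MS2 4, the MS2 arrays lay within the Con range, and 2 MS5 arrays lay above it. The difference was 0.11 in MS2 (-0.16 to 0.38) and 0.13 in MS5 (-0.13 to 0.40). Without MS2 4 the MS2 difference was -0.01, so its direction rested on that array. Without MS2 4 and MS5 9 the MS5 difference was 0.21 (unadjusted p = 0.0153, adjusted p = 0.765). Glul read 14.48, 14.38, 14.72, 14.16 and 14.40 in Con, 14.62, 14.38, 13.79, 14.42 and 14.55 in MS2, and 14.33, 14.39, 14.49, 14.43 and 14.39 in MS5. The MS5 arrays lay within a narrow part of the Con range, and MS2 4 lay below all others. The difference for Glul was -0.07 in MS2 (-0.36 to 0.21) and -0.02 in MS5 (-0.30 to 0.26). The MS2 difference turned without MS2 4, to 0.07 (-0.12 to 0.25).

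**Figure D2:**
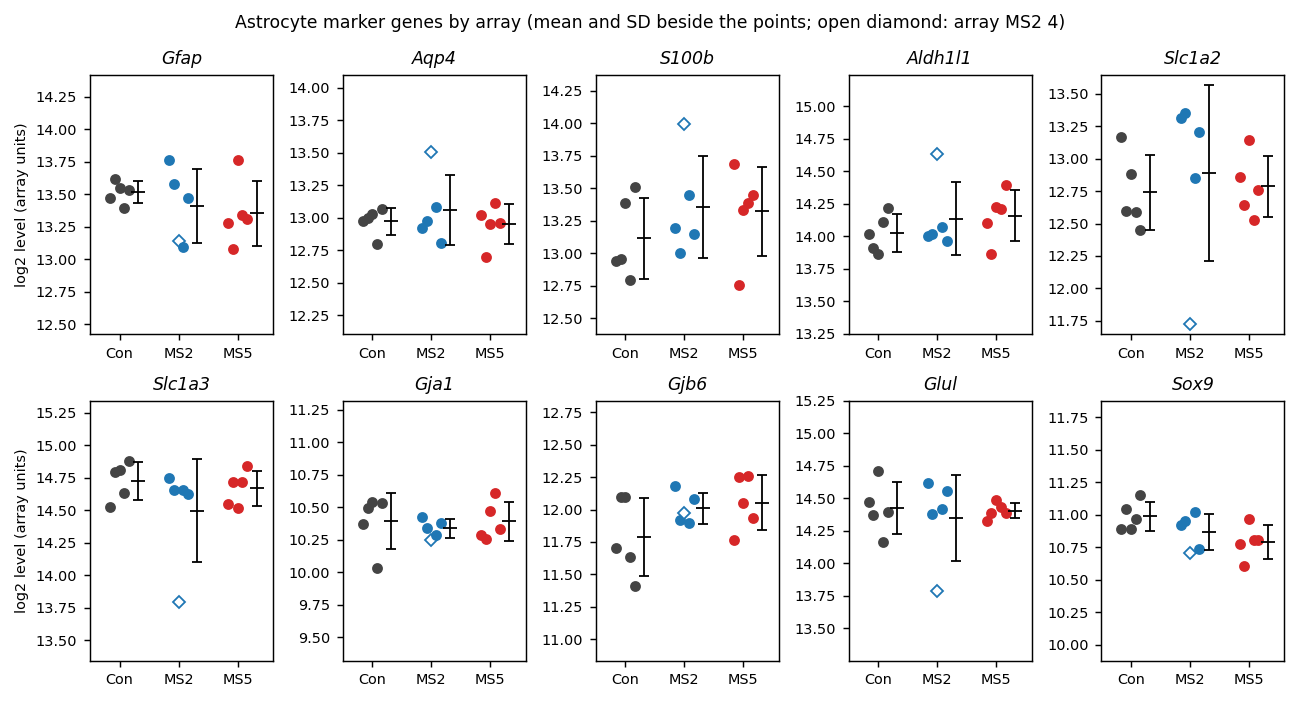
Log2 level (vertical axis, each panel spanning 2 units) of the 10 genes on each array, by group, with the mean and SD of 5 arrays beside the points. The open diamond is array MS2 4, which was highest of its group for Aqp4, S100b and Aldh1l1 and lowest for Slc1a2, Slc1a3, Gja1, Glul and Sox9.

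The glutamate transporters Slc1a2 (GLT-1) and Slc1a3 (GLAST) clear the transmitter from the synaptic cleft. Slc1a2 probe 1 read 13.17, 12.60, 12.88, 12.59 and 12.45 in Con, 13.32, 13.35, 11.72, 12.85 and 13.20 in MS2, and 12.86, 12.64, 13.15, 12.53 and 12.76 in MS5. On MS2 4 it lay below all other arrays, and 3 of the other 4 MS2 arrays lay above all Con arrays. MS2 4 was lowest with probes 2 and 3 as well, where it read 8.78 and 8.81 and the other MS2 arrays read 10.14 to 10.22 and 10.04 to 10.38. Over all arrays the difference of MS2 from Con was 0.15 with probe 1 (-0.40 to 0.70), 0.02 with probe 2 and 0.12 with probe 3. In MS5 it was 0.05 (-0.50 to 0.60), 0.09 and -0.01.

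Without MS2 4, Slc1a2 was higher in MS2 than in Con on all 3 probes, at an unadjusted p only. The difference was 0.44 with probe 1 (95% interval 0.11 to 0.77, unadjusted p = 0.0123), 0.30 with probe 2 (0.13 to 0.47, unadjusted p = 0.00203) and 0.41 with probe 3 (0.20 to 0.61, unadjusted p = 0.000724). The adjusted p was 1 for each. With 4 MS2 and 5 Con arrays, the two-sided exact permutation p over 126 assignments was 0.0397, 0.0317 and 0.00794 for the 3 probes, the last the smallest possible. These were the only 3 of 15 probes with an unadjusted p under 0.05 in that comparison, against 4% of all probes, and as they read 1 gene they are not 3 separate results. MS2 4 was left out for its difference from all other arrays, to which its Slc1a2 level belongs. Within slide 1, which does not hold MS2 4, the difference of MS2 from Con was 0.41 with probe 1 (3 arrays each, unadjusted p = 0.0196), and within slide 2 it was -0.24 with 2 arrays each, MS2 4 among them.

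Slc1a3 read 14.52, 14.79, 14.81, 14.63 and 14.88 in Con, 14.75, 14.65, 13.79, 14.66 and 14.63 in MS2, and 14.55, 14.72, 14.51, 14.71 and 14.84 in MS5. All arrays but MS2 4 lay within 0.37 of each other. The difference was -0.23 in MS2 (-0.55 to 0.09) and -0.06 in MS5 (-0.38 to 0.26). Without MS2 4 the difference of MS2 from Con was -0.05, and the SD within groups was 0.122 in place of 0.256.

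Gja1 and Gjb6, both connexins, form the gap junctions that join astrocytes into networks. Gja1 read 10.37, 10.49, 10.54, 10.03 and 10.53 in Con, 10.42, 10.34, 10.25, 10.29 and 10.38 in MS2, and 10.29, 10.26, 10.47, 10.61 and 10.34 in MS5. Con 18 lay below all other arrays, and the rest of the groups overlapped. The difference was -0.06 in MS2 (-0.25 to 0.14) and 0.00 in MS5 (-0.20 to 0.20). The Gja1 probe was spotted 10 times on each array, and the SD between spots of an array had a median of 0.0966. With the 10 spots averaged, the differences were -0.05 and 0.01. With the first spot alone, as in the main values, the MS2 difference within slide 2 was -0.24 (2 arrays each, unadjusted p = 0.0298). The MS2 arrays there were MS2 4 and MS2 5, and on MS2 4 the first spot was the lowest of 10 (10.25, their mean 10.39). Over both slides without Con 18, the difference was -0.15 in MS2 and -0.09 in MS5.

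Gjb6 read 11.70, 12.10, 12.10, 11.64 and 11.41 in Con, 12.18, 11.92, 11.97, 11.90 and 12.08 in MS2, and 11.77, 12.25, 12.05, 12.25 and 11.94 in MS5. All 10 treated arrays lay above 3 of the Con arrays, and 7 of them lay below the other 2. The difference was 0.22 in MS2 (-0.06 to 0.50), 0.26 in MS5 (-0.01 to 0.54) and 0.24 with both treated groups together (0.00 to 0.49, 1.18-fold). The unadjusted p of the last was 0.0485 and its adjusted p 0.988, and the two-sided exact permutation p over 3003 assignments was 0.0576. Without Con 19, the lowest array, the difference was 0.15 (unadjusted p = 0.186). For both treated groups together it was 0.22 without MS5 9 (unadjusted p = 0.0782) and 0.25 without MS2 4 (unadjusted p = 0.0533). Without MS5 9, MS5 alone differed from Con by 0.21 (unadjusted p = 0.142). Without Con 16, which read 12.10, MS2 differed from Con by 0.30 (unadjusted p = 0.0369) and MS5 by 0.34 (unadjusted p = 0.0197), and leaving out Con 17 in its place gave the same values to 2 decimals.

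Aqp4, the water channel of astrocyte endfeet, read 12.98, 13.0005, 13.03, 12.80 and 13.07 in Con with probe 1, 12.92, 12.97, 13.51, 13.08 and 12.80 in MS2, and 13.02, 12.70, 12.95, 13.11 and 12.96 in MS5. MS2 4 was the highest array and MS5 9 the lowest, and the others overlapped. The difference was 0.08 in MS2 (-0.16 to 0.32) and -0.03 in MS5 (-0.26 to 0.21). Probe 2, at another place in the same transcript, gave 0.21 and 0.05, and MS2 4 was the highest array there too, at 13.15. Leaving out MS2 4 gave an MS2 difference of -0.03 with probe 1, the other direction, and 0.08 with probe 2. Without MS2 5, the array with the lowest signal, it was 0.33 with probe 2 (unadjusted p = 0.0365), and without MS5 9 the MS5 difference of probe 1 was 0.04.

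Sox9, a transcription factor of glial fate that is also active in neural progenitors, had the largest difference relative to its error. It read 10.89, 11.05, 10.89, 10.97 and 11.15 in Con, 10.92, 10.96, 10.70, 11.02 and 10.74 in MS2, and 10.78, 10.60, 10.97, 10.81 and 10.80 in MS5. Of the 5 MS5 arrays 4 lay below all Con arrays, and MS5 12 lay among them. The difference was -0.20 in MS5 (95% interval -0.36 to -0.03, 1.15-fold lower, unadjusted p = 0.0225, adjusted p = 1.00), and the two-sided exact permutation p was 0.0238 where the smallest possible was 0.00794. In MS2 it was -0.12 (-0.29 to 0.04), or -0.08 without MS2 4, and with both treated groups together -0.16 (-0.30 to -0.02, unadjusted p = 0.0315, adjusted p = 0.988). The MS5 and MS2 groups differed by -0.08 (-0.24 to 0.09). Without MS5 9, the array with Xist and the lowest Sox9, the difference of MS5 from Con was -0.15 (unadjusted p = 0.0685), and without Con 19, the highest Con array, it was -0.16 (unadjusted p = 0.0659). Within slide 1 the difference was -0.12 (3 Con and 2 MS5 arrays) and within slide 2 it was -0.31 (2 Con and 3 MS5 arrays).

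The Sox9 probe was also spotted 10 times on each array. With the spots averaged, the mean was 10.96 ± 0.131 in Con, 10.82 ± 0.148 in MS2 and 10.75 ± 0.129 in MS5 (SD, n = 5). The difference of MS5 from Con was then -0.21 (-0.38 to -0.03), with a two-sided exact permutation p of 0.0317. The SD between the spots of an array had a median of 0.178, about as large as the difference itself, while the means of arrays rest on all 10 spots.

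**Figure D3:**
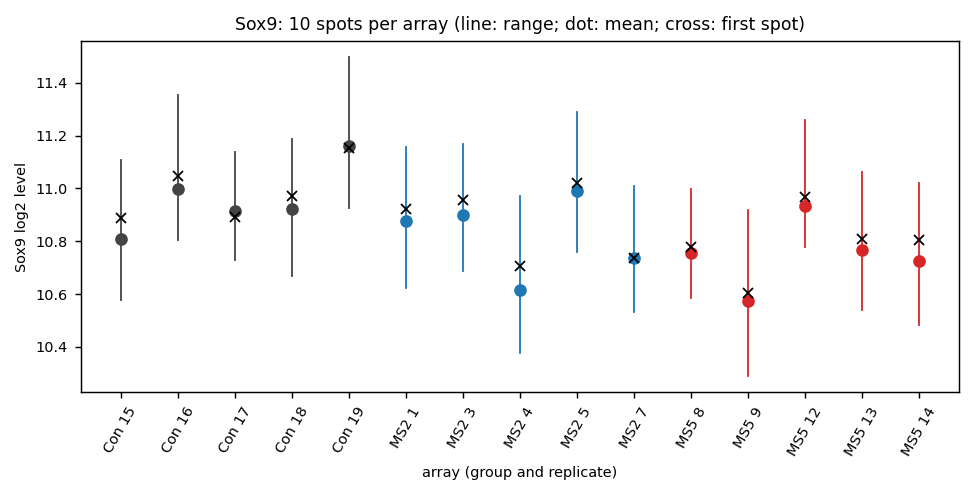
Sox9 log2 level (vertical axis) on each of the 15 arrays (horizontal axis), coloured by group. Lines span the lowest to the highest of 10 spots, dots are their mean and crosses the first spot, whose value the deposited table holds. The means of the MS5 arrays run from 10.57 to 10.94 and those of the Con arrays from 10.81 to 11.16.

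Between the 2 doses no member differed at an unadjusted p under 0.05, and the differences of MS5 from MS2 ran from -0.11 for Aqp4 to 0.17 for Slc1a3 over the 10 genes. Without MS2 4 the difference of Slc1a3 was -0.01 and that of Aqp4 probe 1 was 0.00. In that comparison 4 of 15 probes had an unadjusted p under 0.05, against 6.78% of all probes, and all 4 were lower in MS5: the 3 Slc1a2 probes (-0.39, -0.21 and -0.42) and Gfap probe 3 (-0.23). Their smallest adjusted p was 0.579. Within slide 1, Slc1a2 probe 1 was 0.60 lower in 2 MS5 arrays than in 3 MS2 arrays (unadjusted p = 0.00516), which passes 1.5-fold, and within slide 2 the difference was 0.56 in the other direction (unadjusted p = 0.136), with MS2 4 1 of its 2 MS2 arrays.

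The members did not move together on MS2 4. On that array the difference from the Con mean was 0.875 for S100b, 0.61 for Aldh1l1, 0.53 for Aqp4 with probe 1 and 0.18 for Gjb6. It was -1.02 for Slc1a2, -0.94 for Slc1a3, -0.64 for Glul, -0.37 for Gfap with probe 1, -0.29 for Sox9 and -0.14 for Gja1, while Gfap probe 2 lay on the higher side, at 0.18. Because members moved in both directions, the mean over the 10 genes differed by only -0.12 on MS2 4, less than the -0.16 of Con 18 and the -0.14 of MS5 9. The mean of oligodendrocyte lineage markers on MS2 4 differed from the Con mean by 0.94 and that of ependymal markers by -1.01.

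**Figure D4:**
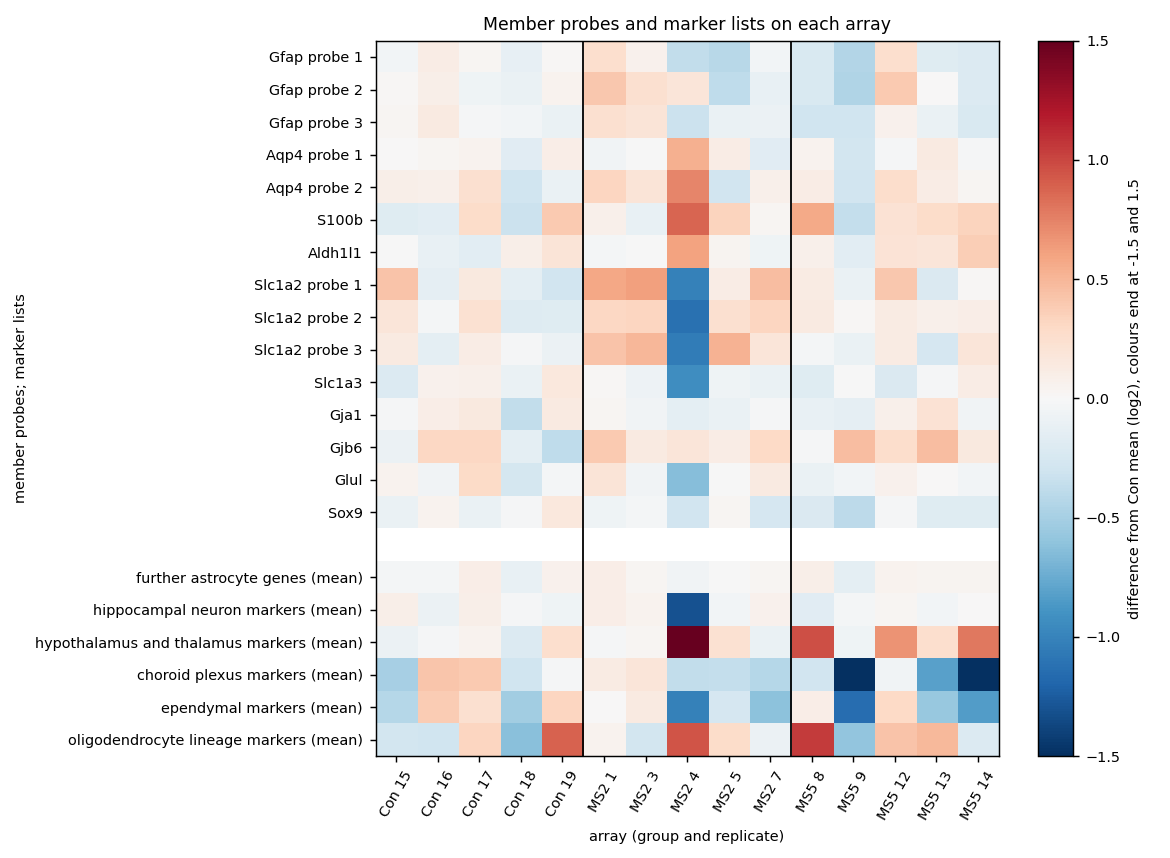
Difference from the Con mean (log2, colour) of the 15 member probes and, below the gap, of the mean over 6 marker lists, on each array. On MS2 4 S100b, Aldh1l1 and Aqp4 are high and Slc1a2, Slc1a3 and Glul low, together with low hippocampal neuron markers and high hypothalamus and thalamus markers, while the mean of further astrocyte genes runs from -0.15 to 0.10 over all arrays.

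Whether members that work together also varied together between animals was examined for 4 pairs, over the deviations of the 15 arrays from their group means. Slc1a2 and Glul, uptake of glutamate and its conversion, had Pearson's r = 0.812 (permutation p = 0.0229, adjusted over the 4 pairs 0.0918) and Spearman's rho = 0.639 (permutation p = 0.0254, adjusted 0.101). Without MS2 3 and MS2 4, the 2 arrays farthest from the median of Slc1a2, r was 0.615, and without MS2 4 alone 0.416. Within slide 1 r was 0.311 (n = 8) and within slide 2 0.953 (n = 7), so that the size of the relation rests largely on MS2 4.

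The 2 transporters, Slc1a2 and Slc1a3, had r = 0.609 (permutation p = 0.192, adjusted 0.306) and rho = 0.221 (permutation p = 0.437, adjusted 0.437). Without MS2 4 r turned to -0.559, and without MS2 3 and MS2 4 it was -0.202, so that the direction rests on that array. Within slides r was -0.439 (slide 1) and 0.704 (slide 2).

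The 2 connexins, Gja1 and Gjb6, had r = 0.389 (permutation p = 0.306, adjusted 0.306) and rho = 0.496 (permutation p = 0.118, adjusted 0.236), with 0.860 in slide 1, -0.376 in slide 2 and 0.262 without Con 18 and MS5 13. Aqp4 and Gja1 had r = 0.240 (permutation p = 0.259, adjusted 0.306) and rho = 0.339 (permutation p = 0.208, adjusted 0.277), with 0.780 in slide 1, 0.296 in slide 2 and 0.644 without MS2 4 and MS2 7. Leaving out 1 array moved r of Aqp4 and Gja1 to as low as 0.0224 (without Con 18) and as high as 0.604 (without MS2 4), and r of Gja1 and Gjb6 to as high as 0.679 (without Con 19). None of the 4 pairs passed the adjusted threshold.

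**Figure D5:**
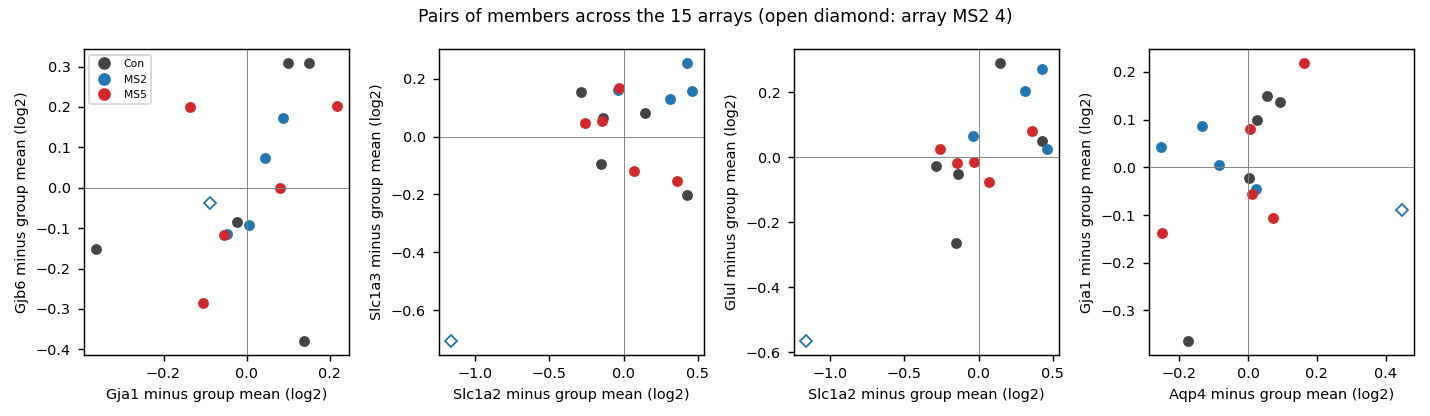
Deviations from the group mean (log2) of 4 pairs of members on the 15 arrays, coloured by group, with array MS2 4 as an open diamond. MS2 4 lies far from the other arrays in both plots with Slc1a2, where r was 0.609 with Slc1a3 and 0.812 with Glul.

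A wider list of 54 further astrocyte genes, transporters, receptors, enzymes and secreted proteins enriched in these cells, was well above background on all arrays for all 54. Its median difference was 0.01 (log2) in MS2 and 0.03 in MS5 versus Con, beside 0.00 over all genes. In MS2 versus Con 3 of the 54 were higher and 0 lower at an unadjusted p under 0.05, where 1.65% of all genes were higher and 2.3% lower. In MS5 versus Con 0 were higher and 1 lower, against 1.48% and 2.74% of all genes. Leaving out MS2 4 gave larger counts for this list: 5 higher and 0 lower in MS2, against 1.74% and 1.85% of all genes, and 3 higher and 4 lower in MS5, against 2.59% and 4% of all genes. None of the 54 was past 1.5-fold in either contrast.

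The same shares of all genes stand beside the next 3 lists. Of 39 genes that reactive astrocytes are known to raise, 35 well above background on all arrays, 0 were higher and 2 lower in MS2, and 1 was higher and 3 lower in MS5, at an unadjusted p under 0.05. Without MS2 4 there were 0 and 0 in MS2 and 2 higher and 5 lower in MS5. A gene counted as lower in MS5, Steap4, was well above background on 11 arrays only. None was past 1.5-fold, and the median difference was -0.05 in MS2 and -0.04 in MS5. Of 14 radial glia and neural stem cell markers, 1 was lower in MS2 and 2 in MS5 and 0 were higher, with medians of -0.04 and -0.08. The marker lower in MS2 was lower in MS5 too, and in both it was also counted among the reactive genes. Without MS2 4, 1 was lower in MS2 and 4 in MS5.

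Of 30 genes that handle glutamate, potassium and water in astrocytes and at their contacts, 2 were higher in MS2, and 2 were lower in MS5 at an unadjusted p under 0.05. Of all genes 1.65% were higher in MS2 and 2.74% lower in MS5. Both genes higher in MS2 were also counted in the wider list of 54, so they add nothing to it. Without MS2 4, 1 was higher in MS2, and 1 was higher and 2 lower in MS5. Only Trpv4, a calcium channel that responds to swelling, was past 1.5-fold, at -1.11 in MS5 versus Con (unadjusted p = 0.00974, adjusted p = 1.00). It read 10.14 to 10.92 in Con, 10.08 to 10.78 in MS2, and 10.32, 8.65, 10.59, 9.81 and 8.20 in MS5. The low arrays were MS5 9 and MS5 14, on which the choroid plexus markers were lowest as well. Of the 16 choroid plexus markers 14 were lower in MS5 than in Con past 1.5-fold with an unadjusted p under 0.05. Of all 36163 genes 79 were lower at that threshold. Several of these markers, Aqp1, Kl and Cldn2 among them, had already been reported as lower in MS5 on these same arrays. The count is therefore a description only. The mean of these markers relative to the Con mean ran from -0.50 to 0.42 in Con, from -0.43 to 0.18 in MS2 and from -3.02 to -0.06 in MS5. Trpv4 is known to be expressed in choroid plexus too, and the part of that tissue in its difference was not tested.

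Markers of oligodendrocytes, ependymal cells and microglia were well above background on all arrays. The mean of 18 oligodendrocyte lineage markers relative to the Con mean ran from -0.63 to 0.88 in Con, from -0.27 to 0.94 in MS2 and from -0.59 to 1.04 in MS5. That of 10 ependymal markers ran from -0.52 to 0.38 in Con, from -1.01 to 0.14 in MS2 and from -1.15 to 0.29 in MS5, and that of 12 microglia markers from -0.22 to 0.24 over all groups. The mean of the 10 astrocyte members ran from -0.16 to 0.11 in Con, from -0.12 to 0.14 in MS2 and from -0.14 to 0.12 in MS5, so the 3 groups covered nearly the same range.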

How the data were processed

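Hippocampal RNA was measured on 15 Agilent 1-colour mRNA arrays, 5 a group. The 9 miR arrays of the series were not used here. The authors deposited scanner intensity per spot and a table of log2 values, background adjusted with normexp and quantile normalized. The table was used as the main source. Normexp with an offset of 50 and quantile normalization over 62976 spots gave its values from the intensity files to within 5e-09 at the first spot of each probe, so probes with several spots rest on 1 spot there. Flags for signal well above background came from the deposited scanner files. No spot was saturated.

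Groups were compared with limma 3.58.1 (lmFit and eBayes, R 4.3.3) in 1 fit of 3 groups, with Benjamini-Hochberg adjustment over 55681 probes. Intervals are moderated 95% intervals. Exact permutation tests were two-sided over all assignments, and those of pairs used 100000 permutations within groups. Genes of the lists were represented by the probe with the highest mean level. Genes outside the 10 were named where past 1.5-fold with p under 0.05, or as markers of other tissue. The members and lists were chosen with earlier results of these data known. Alternatives were other background corrections and scalings, a filter on dim probes, slide as a block and alone, array weights, only the groups compared, other probes of a gene, and leaving out arrays. Leaving out MS2 4 and MS5 9 together was chosen after seeing the data. The number of arrays limited the precision.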

Additional observations from a re-analysis of the deposited data

Results flagged for a closer look

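A sample far from the others of its group was looked for with Dixon's ratio in 84 groups of 5 values, of which chance flags about 1 in 20, or 4.2. There were 10 flags, 6 of them on the array MS2 4. Within the MS2 group, MS2 4 was highest for Aldh1l1 (14.63, the next array 14.07) and lowest for Slc1a3 (13.79, the next 14.63). It was lowest for Slc1a2 probe 2 (8.78, the next 10.14) and Slc1a2 probe 3 (8.81, the next 10.04). The mean of the hippocampal neuron markers was lowest on it (-1.31 from the Con mean, the next -0.04), and that of the hypothalamus and thalamus markers was highest (1.59, the next 0.23).

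In the MS5 group, MS5 9 was lowest for the mean of further astrocyte genes (-0.15, the next 0.04) and highest for Xist (11.34, the next 6.05). In the Con group, Con 19 was lowest for the mean of meninges markers (-0.83, the next 0.09) and highest for Xist (6.08, the next 5.97), a difference of small size.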

How the results depend on the processing

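The count of member probes past 1.5-fold with p under 0.05 was 0 in all 4 contrasts under every alternative but slide 1 alone, where it was 1 in MS5 versus MS2 (Slc1a2). The count at p under 0.05 was small and moved often. In both treated groups versus Con (2) it was 1 with a normexp offset of 0, with the processed signal, with slide as a block and with array weights, 0 within slide 1 and 1 within slide 2. In MS2 versus Con (0) it was 3 within slide 1, 1 within slide 2, 2 with array weights and 3 without MS2 4 and MS5 9 together. In MS5 versus Con (1) it was 0 within slide 2, 2 with only the groups compared and 2 without those 2 arrays. In MS5 versus MS2 (0) it was 5 within slide 1, 1 within slide 2, 5 with array weights and 4 without those 2 arrays. The share of all probes under these settings is not given here, so the counts are not read as results about the members. That share can move as well: in MS5 versus MS2 it was 3.97% over all arrays and 6.78% without MS2 4.

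Leaving out 1 array at a time gave 0 to 3 in MS2 versus Con, 0 to 3 in MS5 versus Con, 0 to 4 in MS5 versus MS2 and 0 to 3 in both treated groups versus Con. These ranges too stand without the share of all probes. The median difference over the 10 genes was -0.24 in MS2 versus Con and 0.12 in MS5 versus MS2 within slide 2, whose 2 MS2 arrays include MS2 4, and moved by less than the spread between Con arrays otherwise. With 1 array left out, r of Slc1a2 with Slc1a3 ran from -0.559 (without MS2 4, reversed) to 0.748, that of Slc1a2 with Glul from 0.416 to 0.849, that of Aqp4 with Gja1 from 0.0224 to 0.604 and that of Gja1 with Gjb6 from 0.294 to 0.679. The cause of these shifts was not tested. Sox9 in MS5 versus Con stayed lower in all 27 alternatives and had p under 0.05 in 22 of them (0.00758 to 0.127). Some of the 27 could not change that difference: leaving out an MS2 array or choosing among probes left it at -0.20. Those with p over 0.05 were slide 1 alone, slide 2 alone, without Con 19, without MS5 9, and without MS2 4 and MS5 9 together. In both treated groups versus Con the p of Sox9 was 0.0719 without Con 16, 0.108 without Con 19, 0.0527 without MS2 7 and 0.0504 without MS5 9. Gjb6 in both treated groups stayed higher in all 27 and had p under 0.05 in 10. Here too some settings, the choice of probe among them, could not change the difference. No paired analysis was possible because the replicate numbers are not shared between the groups.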
